A study of Mus musculus with 10 samples.

Results

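The mast cell and basophil genes described here are Cpa3, Mcpt8, Prss34, Ms4a2, Fcer1a, Hdc, Gzmb, Cyp11a1, Tpsb2 and Il1rl1, a set of 10 of the 55359 genes in the deposited expression table. They were taken by name, through the match of Ensembl identifiers to mouse symbols, and all 10 had a mean of at least 0.1 FPKM over the libraries, so all 10 were tested, although Tpsb2 reached that level only in the libraries labelled cKO. FPKM is the number of sequenced fragments scaled to the length of the gene and to the fragments of the library.

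RNA was sequenced from bone marrow cells left after depletion of cells that carry lineage surface markers, with 5 libraries from Dhx9f/f mice (WT) and 5 from Dhx9f/f;MX1 mice (cKO). Both groups carry the floxed Dhx9 alleles, and in the cKO mice Cre comes from the MX1 promoter, which responds to interferon and is switched on by poly(I:C). By the general methods of the study, MX1-Cre mice received repeated poly(I:C) injections and were analysed about a week after the first dose, whereas the treatment of the sequenced WT mice and the age of the mice are not given in the sources used here. For other experiments of the study, mice of both genotypes are described as taken after poly(I:C). An effect of poly(I:C) and the effect of the genotype cannot be told apart if the sequenced WT mice were untreated. Depth, read from the steps of low FPKM values, was 13790800 to 17172200 fragments in the libraries labelled cKO and 15069200 to 18821800 in the WT libraries.

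Mast cells and basophils are granule-bearing cells of the myeloid branch that carry the high-affinity receptor for IgE, release histamine when it is cross-linked, and store proteases in their granules. Basophils mature in the bone marrow, whereas mast cells complete their maturation in tissues. Their precursors share transcription factors of the GATA family with erythroid and megakaryocyte precursors.

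Dhx9, the targeted gene, was at 68.96, 72.42, 72.18, 69.55 and 65.43 FPKM in WT 1 to 5, whereas the libraries labelled cKO 1 to 5 held 130.82, 148.8, 131.25, 156.49 and 131.98 FPKM. Each library labelled cKO was thus above each WT library, which goes against the label. Every direction given here rests on the labels, and FPKM per gene does not show which exons were covered. In other assays, the paper reports less DHX9 in bone marrow of cKO mice. By qRT-PCR it also reports lower Spi1, Cebpa and Gfi1 in lineage-depleted cKO cells. In the libraries labelled cKO the log2 fold changes of these 3 genes were -1.73, -3.09 and -2.12. Whether the labels were exchanged was not tested. Sex-linked transcripts were uneven between the groups, since Xist was at 99.19, 121.04 and 127.76 FPKM in WT 3, 4 and 5 and at no more than 0.09 FPKM in WT 1, WT 2 and the libraries labelled cKO. Ddx3y, a gene of the Y chromosome, was at no more than 0.05 FPKM in WT 3, 4 and 5 and at 19.66 to 38.53 FPKM in the other libraries.

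Of the 10 genes, 7 were called lower in the group labelled cKO, 2 were not called, and Tpsb2 was called higher (limma, adjusted p under 0.05 and fold change of at least 2). Over all 18742 genes tested, 16.8% were called lower and 4.60% were called higher, which is 3153 and 862 genes. These numbers moved to 1486 and 356 with a pseudocount of 1 and to 2302 and 1514 with quantile normalization, while 7 of the 10 genes were called lower in both. The median log2 fold change of the 10 genes was -1.59, and -1.69 without Tpsb2, against -0.11 over all genes tested. The 10 genes were chosen with earlier results of these data known, so their contrast with all genes is a description and no test. Fold changes are on the scale of log2(FPKM + 0.1), which understates the change of low genes. In a mixed cell population, fewer cells of a type and less RNA per cell cannot be told apart.

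**Figure D1:**
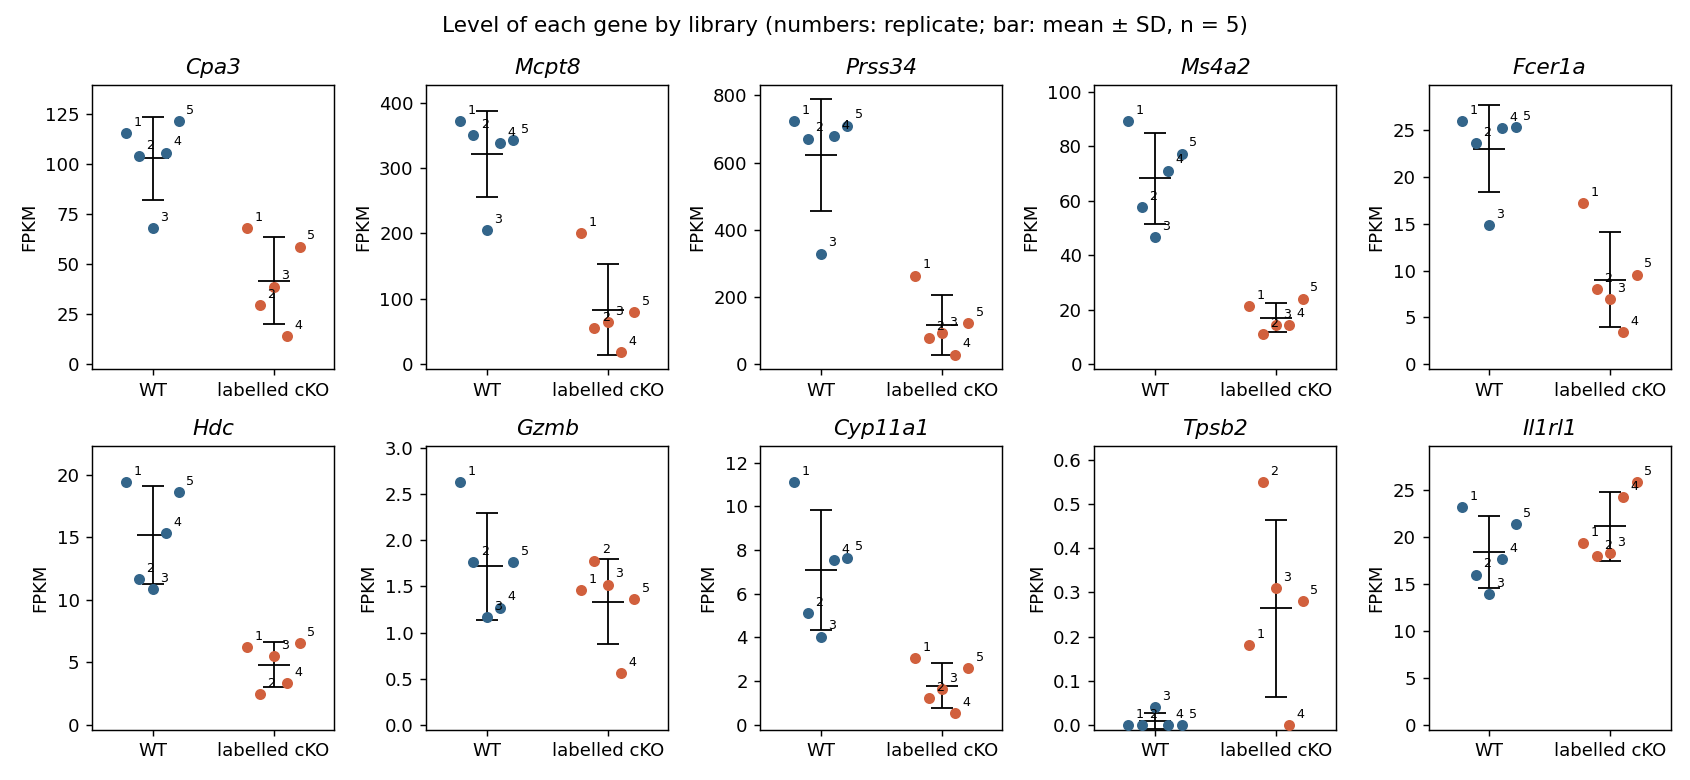
FPKM of each of the 10 genes in the 5 WT libraries and the 5 libraries labelled cKO, on linear axes, with the replicate number beside each point and bars for the mean ± SD (n = 5). For Mcpt8, Prss34, Ms4a2, Hdc and Cyp11a1, all points of the libraries labelled cKO lie under those of WT.

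The proteases of the basophil granule were the most abundant of the 10 genes. Prss34, which encodes mast cell protease 11, a tryptase of basophils, was at 722.61, 671.4, 328.66, 679.51 and 709.71 FPKM in WT 1 to 5 and at 263.61, 78.87, 91.93, 28.11 and 123.01 FPKM in libraries labelled cKO 1 to 5. The groups did not overlap, WT 3 was the lowest WT library, and the library labelled cKO 1 was the highest of its group. Its mean fell from 622 ± 166 to 117 ± 88.8 FPKM (SD, n = 5 each), and its log2 fold change was -2.70 (standard error 0.488, limma adjusted p = 0.00117). By the exact permutation test over the libraries, two-sided, p was 0.00794, which is the smallest value possible with 5 libraries per group.

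Mcpt8, a serine protease used as a marker of mouse basophils, was at 371.66, 350.28, 204.94, 338.19 and 342.49 FPKM in WT 1 to 5 and at 200.77, 54.56, 64.37, 18.39 and 79.12 FPKM in libraries labelled cKO 1 to 5. These groups did not overlap either, although WT 3 and the library labelled cKO 1 were close to each other. The log2 fold change was -2.31 (standard error 0.495, limma adjusted p = 0.00319), with p = 0.00794 by the exact permutation test. With median-ratio scaling the exact permutation p was 0.0159, above the smallest value possible, so the groups were not fully apart on that scale.

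Cpa3, the carboxypeptidase A of mast cell granules, which basophils and early precursors also express, was at 115.63, 103.95, 67.92, 105.8 and 121.49 FPKM in WT 1 to 5 and at 67.97, 29.37, 38.77, 14.04 and 58.84 FPKM in libraries labelled cKO 1 to 5. Its groups overlapped, since the library labelled cKO 1 lay just above WT 3. The log2 fold change was -1.47 (standard error 0.373, limma adjusted p = 0.00804), with p = 0.0159 by the exact permutation test. A predicted gene, Gm31320, overlaps exons of Cpa3 by up to 98 bases on the opposite strand, and fragments of that stretch cannot be assigned without strand.

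Tpsb2, the tryptase of connective tissue mast cells, was the only one of the 10 genes called higher. It was listed at 0 in WT 1, 2, 4 and 5, at 0.04 FPKM in WT 3, and at 0.18, 0.55, 0.31, 0 and 0.28 FPKM in libraries labelled cKO 1 to 5. No library held more than about 20.7 fragments of it, and the library labelled cKO 4 held none. With a mean of 0.264 FPKM in the libraries labelled cKO and 0.008 FPKM in WT, it passed the filter only through the group where it was high, and without the library labelled cKO 2 it did not pass. With no filter on low values it kept the call (limma adjusted p = 0.0189). The limma adjusted p was 0.0173 and the exact permutation p was 0.0476. Since WT was mostly listed at 0, the log2 fold change follows the pseudocount, the value added before the logarithm, and was 3.52 at 0.01, 1.53 at 0.1 and 0.31 at 1. The call was lost with a pseudocount of 1 through the fold limit alone (limma adjusted p = 0.0274). With a covariate for Xist it was lost through the adjusted p of 0.0721, at a log2 fold change of 1.63.

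Gzmb, granzyme B, a protease of cytotoxic lymphocytes that basophils and mast cells can also hold, was at 2.63, 1.76, 1.17, 1.27 and 1.76 FPKM in WT 1 to 5 and at 1.46, 1.78, 1.52, 0.56 and 1.36 FPKM in libraries labelled cKO 1 to 5. The groups overlapped. The log2 fold change was -0.37 with a 95% interval of -1.05 to 0.32 (limma adjusted p = 0.367), and with quantile normalization its sign turned to 0.13. With 12.1 to 62.5 fragments per library, the interval holds changes in both directions.

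The IgE receptor subunits were both called lower. Ms4a2, the beta chain, was at 89.16, 57.52, 46.52, 71.06 and 77.33 FPKM in WT 1 to 5 and at 21.4, 11.13, 14.18, 14.52 and 24.07 FPKM in libraries labelled cKO 1 to 5. The groups did not overlap, and the libraries labelled cKO lay closer together than for the proteases. Ms4a2 had a log2 fold change of -2.02 (standard error 0.230, limma adjusted p = 1.15e-04, exact permutation p = 0.00794).

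Fcer1a, the alpha chain that binds IgE, was at 25.98, 23.63, 14.84, 25.28 and 25.38 FPKM in WT 1 to 5 and at 17.23, 7.99, 6.99, 3.42 and 9.57 FPKM in libraries labelled cKO 1 to 5. As for Cpa3, the library labelled cKO 1 lay above WT 3. Fcer1a had a log2 fold change of -1.49 (standard error 0.349, limma adjusted p = 0.00514, exact permutation p = 0.0159).

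Hdc, the enzyme that makes histamine from histidine, was at 19.4, 11.66, 10.84, 15.33 and 18.59 FPKM in WT 1 to 5 and at 6.24, 2.48, 5.47, 3.35 and 6.55 FPKM in libraries labelled cKO 1 to 5. All libraries labelled cKO were below all WT libraries. Hdc had a log2 fold change of -1.69 (standard error 0.280, limma adjusted p = 7.22e-04, exact permutation p = 0.00794).

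Cyp11a1, the mitochondrial enzyme that starts steroid synthesis by cutting the side chain of cholesterol, was at 11.11, 5.12, 4.04, 7.55 and 7.65 FPKM in WT 1 to 5 and at 3.04, 1.21, 1.62, 0.52 and 2.58 FPKM in libraries labelled cKO 1 to 5. Its groups did not overlap. Cyp11a1 had a log2 fold change of -2.05 (standard error 0.427, limma adjusted p = 0.00268, exact permutation p = 0.00794). The predicted genes Gm17322 and Gm68294 overlap its exons by up to 145 bases, on the same and on the opposite strand, so its values could include fragments of theirs.

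Il1rl1, the receptor for IL-33, was at 23.16, 15.97, 13.88, 17.64 and 21.37 FPKM in WT 1 to 5 and at 19.3, 17.92, 18.21, 24.21 and 25.8 FPKM in libraries labelled cKO 1 to 5. The groups overlapped, and the library labelled cKO 4, which was lowest for Prss34, Mcpt8, Cpa3, Fcer1a and Cyp11a1, was the next to highest of all libraries for Il1rl1. The log2 fold change was 0.20 with a 95% interval of -0.14 to 0.55 (limma adjusted p = 0.318).

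**Figure D2:**
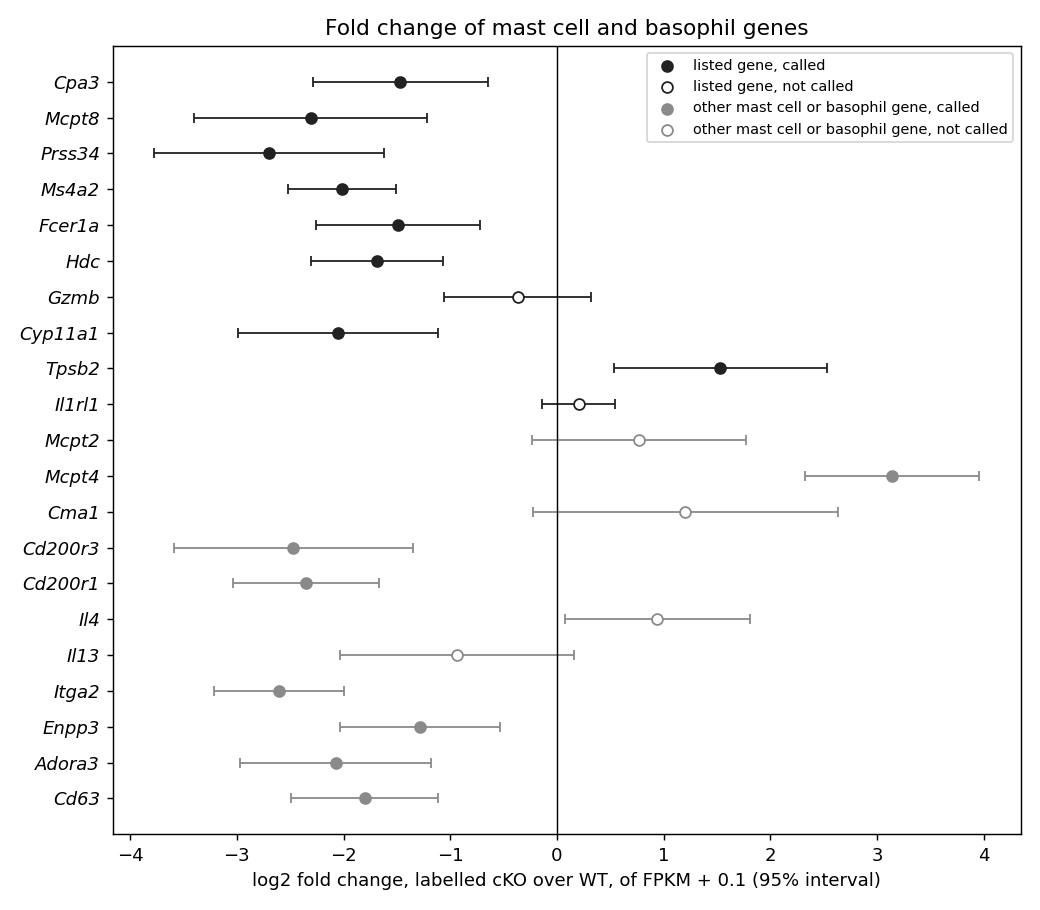
Log2 fold change of FPKM + 0.1 between the libraries labelled cKO and WT (n = 5 each) with 95% intervals, for the 10 listed genes (black) and the 11 tested genes of the list of other mast cell and basophil genes (grey). Filled points are called, and the points of Tpsb2 and Mcpt4 lie to the right of 0, at distances that depend on the pseudocount.

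By mean WT level the order was Prss34, Mcpt8, Cpa3, Ms4a2, Fcer1a, Il1rl1, Hdc, Cyp11a1, Gzmb and Tpsb2. Neighbours in this order whose means differed by less than the larger SD were Fcer1a, at 23.0 ± 4.66 FPKM, and Il1rl1, at 18.4 ± 3.82 FPKM, and also Il1rl1 and Hdc, at 15.2 ± 3.89 FPKM (SD, n = 5). In the libraries labelled cKO, Il1rl1 stood at 21.1 ± 3.66 FPKM, above Fcer1a at 9.04 ± 5.11 FPKM. The mean of Ms4a2, 17.1 ± 5.43 FPKM, was lower than that of Il1rl1 by less than the larger SD. In the library labelled cKO 1, Ms4a2 was the higher of these, at 21.4 against 19.3 FPKM. In the deposited FPKM, 5 of the 10 genes had all libraries labelled cKO below all WT libraries, against 21.6% of all genes tested.

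Among the 7 genes called lower, WT 3 was the lowest WT library for 7 and the library labelled cKO 4 the lowest of its group for 5. The library labelled cKO 1 was the highest of its group for 5. Relative to the WT mean on the log2 scale, the median of the 7 genes was -0.60 in WT 3, -1.11 in the library labelled cKO 1 and -2.84 in that labelled cKO 4. Without the library labelled cKO 4 the log2 fold change of Prss34 was -2.27 and that of Mcpt8 -1.86, and without that labelled cKO 1 they were -3.08 and -2.72.

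Ratios to Mcpt8 were examined next, a comparison chosen after the values were seen, and they moved for some of the genes called lower. The ratio of Cpa3 to Mcpt8 FPKM was 0.311, 0.297, 0.331, 0.313 and 0.355 in WT 1 to 5 and 0.339, 0.538, 0.602, 0.763 and 0.744 in the libraries labelled cKO 1 to 5. WT libraries and the library labelled cKO 1 thus shared a narrow range, and the other libraries labelled cKO lay above it. The ratio of Prss34 to Mcpt8 was 1.60 to 2.07 in WT and 1.31 to 1.55 in the libraries labelled cKO. The ratio of Ms4a2 to Mcpt8 was 0.164 to 0.240 in WT and reached 0.790 in the library labelled cKO 4, against 0.107 in that labelled cKO 1. For Fcer1a it was 0.0675 to 0.0748 in WT and 0.0858 to 0.186 in the libraries labelled cKO, and for Hdc 0.0333 to 0.0543 and 0.0311 to 0.182. The ratio of Cyp11a1 to Mcpt8 overlapped, at 0.0146 to 0.0299 in WT and 0.0151 to 0.0326 in the libraries labelled cKO.

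**Figure D3:**
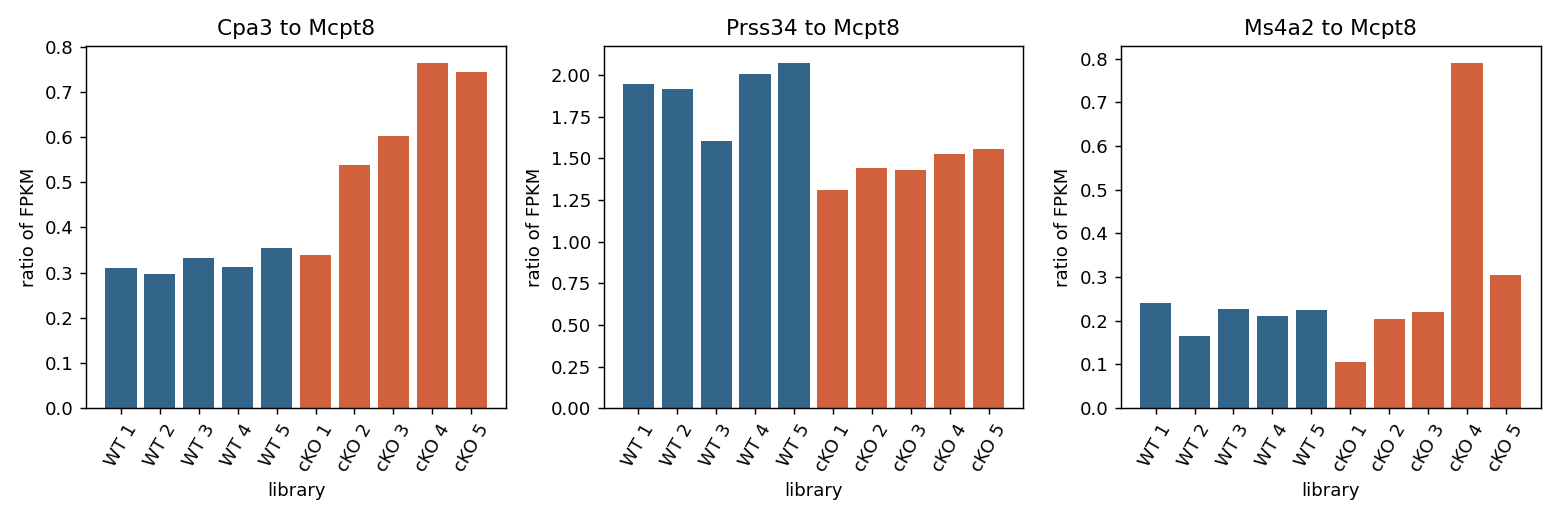
Ratio of the FPKM of Cpa3, Prss34 and Ms4a2 to that of Mcpt8 in each library, WT in blue and labelled cKO in orange, on axes that start at 0. The ratio of Cpa3 to Mcpt8 spans 0.297 to 0.355 in WT and reaches 0.763 in the library labelled cKO 4.

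By the root mean square difference of their centred log2 profiles over the 10 libraries, Mcpt8 and Prss34 were nearest to each other (0.224), as were Cpa3 and Fcer1a (0.213) and Ms4a2 and Hdc (0.262). Cyp11a1 was nearest to Cpa3 (0.367). Tpsb2 was nearest to Il1rl1 but far from it (1.04), and Gzmb and Il1rl1 were nearest to each other (0.591).

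The other genes of mast cells and basophils, a list of 18, were examined next. Of these, 11 were tested, 6 were called lower and 1 higher, against 16.8% and 4.60% of all genes tested. The 11 tested genes had a median log2 fold change of -1.28. Of the 8 whose mean reached 0.1 FPKM in both groups, 6 were called lower and 0 higher. Among the genes called lower, Cd63, a granule membrane protein exposed on degranulation, went from 21.84 to 27.52 FPKM in WT to 3.33 to 11.75 FPKM in libraries labelled cKO, and Cd200r3, a receptor of basophils and mast cells, from 6.30 to 15.67 FPKM to 0.40 to 4.59 FPKM. Itga2, the integrin chain CD49b found on basophils, had a log2 fold change of -2.60 (standard error 0.276). Whether the RNA of these genes came from mast cells and basophils alone was not tested. Il4, a cytokine of basophils, was not called and went the other way, from a mean of 2.61 FPKM in WT to 5.81 FPKM in libraries labelled cKO, where it reached 9.93 FPKM, with a log2 fold change of 0.94 (unadjusted p = 0.0364, limma adjusted p = 0.0739).

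The protease called higher in that list was Mcpt4, a chymase of connective tissue mast cells. Its value was 0 in each of WT 1 to 5, and the libraries labelled cKO 1 to 5 had 0.91, 1.26, 1.18, 0.24 and 0.79 FPKM, at no more than 24 fragments per library (limma adjusted p = 1.31e-04), so that it passed the filter only through these libraries. With a pseudocount of 1, no gene of this list was called higher. The same held with only genes at a mean of at least 1 FPKM, where Mcpt4, at 0.438 FPKM, was not tested. Cma1, another chymase, was at 1.72, 1.81, 1.37, 0.12 and 0.35 FPKM in libraries labelled cKO 1 to 5, against 0.06 to 0.66 FPKM in WT, and was not called. Tpsab1, the nearest relative of Tpsb2, was listed at 0 in WT and was at 0.14 and 0.39 FPKM in libraries labelled cKO 2 and 3 and listed at 0 in the others. Mcpt2 was at no more than 0.10 FPKM in WT and at 0.34, 0.33, 0.29, 0 and 0.06 FPKM in libraries labelled cKO 1 to 5, and was not called. Mcpt1, Mcpt9, Cma2 and Tpsg1 stayed at 0.11 FPKM or less in the 10 libraries.

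Of 17 genes of IgE receptor signalling, 9 were called lower and 1 higher, against 16.8% and 4.60% of all genes tested. The median log2 fold change over the list was -1.09. Fcer1g, the gamma chain shared with other Fc receptors, was at 128.16, 99.15, 80.59, 112.58 and 124 FPKM in WT 1 to 5 and at 17.44, 4.13, 17.75, 2.76 and 24.15 FPKM in libraries labelled cKO 1 to 5. Its log2 fold change of -3.45 (standard error 0.549) was larger in size than those of Ms4a2 and Fcer1a, but the difference between them was not tested. Grb2, an adaptor, had a log2 fold change of -0.30 (adjusted p = 0.0403), under the fold limit, and Rasgrp4, an exchange factor for Ras, had a log2 fold change of -2.54 (standard error 0.354).

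Of 12 tested cytokine receptor genes, 9 were called lower, against 16.8% of all genes tested, and the median of the list was -1.91. Among those called lower, Csf2ra, a chain of the GM-CSF receptor, went from 21.43 to 37.22 FPKM in WT to 3.52 to 7.31 FPKM in libraries labelled cKO. Kit, the receptor for stem cell factor, was at 36.56 to 54.36 FPKM in WT and at 18.73 to 31.11 FPKM in libraries labelled cKO, and its log2 fold change of -0.86 (standard error 0.166) was under the fold limit. Of 18 transcription factors, 8 were called lower, with Cebpa (-3.09) and Nfil3 (-2.79) changed most. By mean over all 10 libraries Ikzf1 and Gata1 had the highest levels, with log2 fold changes of -0.21 and 0.81, both under the fold limit. In WT, however, Myb, at 70.6 FPKM, stood above Gata1, at 58.0 FPKM. Gata1 was at 48.0 to 77.36 FPKM in WT and at 92.03 to 109.38 FPKM in libraries labelled cKO (limma adjusted p = 3.60e-04). Gata2 went the other way, with a log2 fold change of -0.90 (limma adjusted p = 0.00567), under the fold limit, and its groups overlapped.

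Of 12 tested genes of lipid mediators, amines and granule matrix, 4 were called lower and 1, Tph1, higher, against 16.8% and 4.60% of all genes tested. Hnmt, which inactivates histamine, had a log2 fold change of -3.07 (standard error 0.438), and Alox5ap, which serves leukotriene synthesis, was at 86.27 to 152.36 FPKM in WT and at 7.41 to 36.94 FPKM in libraries labelled cKO. Srgn, the core of the granule proteoglycan, had a log2 fold change of -0.84, under the fold limit. Tph1, the enzyme that starts serotonin synthesis, was listed at 0 in WT and was at 0.23, 22.18, 3.08, 53.38 and 5.92 FPKM in libraries labelled cKO 1 to 5, which alone took it past the filter. Of 6 tested genes of steroid synthesis apart from Cyp11a1, limma called 0, and 4 had an unadjusted p under 0.05, 2 of them lower and 2 higher, against 52.3% of all genes tested, while Tspo and Por were the most abundant.

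Lists of genes of other cell types also held genes called lower, apart from the erythroid list, where calls were higher. Over all genes tested, 16.8% were called lower and 4.60% higher. All 11 eosinophil genes were called lower, with a median log2 fold change of -2.66 and a summed level of 242 to 733 FPKM in WT and 54.3 to 236 FPKM in libraries labelled cKO. Its most abundant gene, Prg2, was at 175.83 to 543.12 FPKM in WT and 46.67 to 197.97 FPKM in libraries labelled cKO. Of 15 tested T and NK cell genes, 9 were called lower, and their sum went from 83.8 to 109 FPKM in WT to 8.93 to 31.2 FPKM in libraries labelled cKO, most of it Nkg7, while Gzmc was listed at 0 in every library. Only 4 of these genes were called lower with a pseudocount of 1 and in the libraries with low Xist. At a minimum mean of 1 FPKM, 4 were also called lower. These were Nkg7, Klrd1, Gzma and Il2rb, the only genes of the list that reached that mean. Of 7 tested ILC2 genes, 1 was called lower (14.3%), a share under the 16.8% of all genes tested. It was Il17rb, the most abundant of the list in WT, and Areg was listed at 0 in every library.

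Of 13 neutrophil genes 7 were called lower, of 10 monocyte and dendritic cell genes 9, and of 12 megakaryocyte genes 12. Of 7 tested B lymphoid genes 4 were called lower, and of 10 stem and progenitor genes 8, against 16.8% of all genes tested. In WT the most abundant of these lists were Mpo, Lyz2, Ppbp, Dntt and Cd34. With a pseudocount of 1, lower calls were 2 for the B lymphoid and 5 for the stem and progenitor list, and in the libraries with low Xist they were 3 for the neutrophil and 2 for the B lymphoid list. The summed neutrophil genes were at 2822 to 3870 FPKM in WT and at 2726, 193, 909, 161 and 1194 FPKM in libraries labelled cKO 1 to 5, so that the library labelled cKO 1 almost reached WT, and those labelled cKO 2 and 4 were lowest there too. In the library labelled cKO 1, S100a9 was at 894.75 FPKM, S100a8 at 442.9 FPKM and Ngp at 317.58 FPKM, against no more than 93.11, 113.81 and 19.69 FPKM in WT, and these 3 genes were not called. Of 8 stromal and endothelial genes, 5 were called lower and 1 higher. The lower calls there fell to 3 with a pseudocount of 1. They were 1 at a minimum mean of 1 FPKM, which leaves out low genes such as Kitl. The higher call was lost with the replicate block, with the Xist covariate and in the libraries with low Xist. Some tested genes of these lists reached 0.1 FPKM only in 1 group, and among those that did in both, lower calls were 6 of 11 T and NK, 1 of 6 ILC2, 3 of 6 B lymphoid, 6 of 8 stem and progenitor and 4 of 6 stromal and endothelial genes. Of 14 erythroid genes, 8 were called higher, against 4.60% of all genes tested. The sum of the 14 was 1735 to 3086 FPKM in WT and 4983 to 8358 FPKM in libraries labelled cKO, with Car1 the most abundant. What part the makeup of the cells had in the lower level of the mast cell and basophil genes was not tested.

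**Figure D4:**
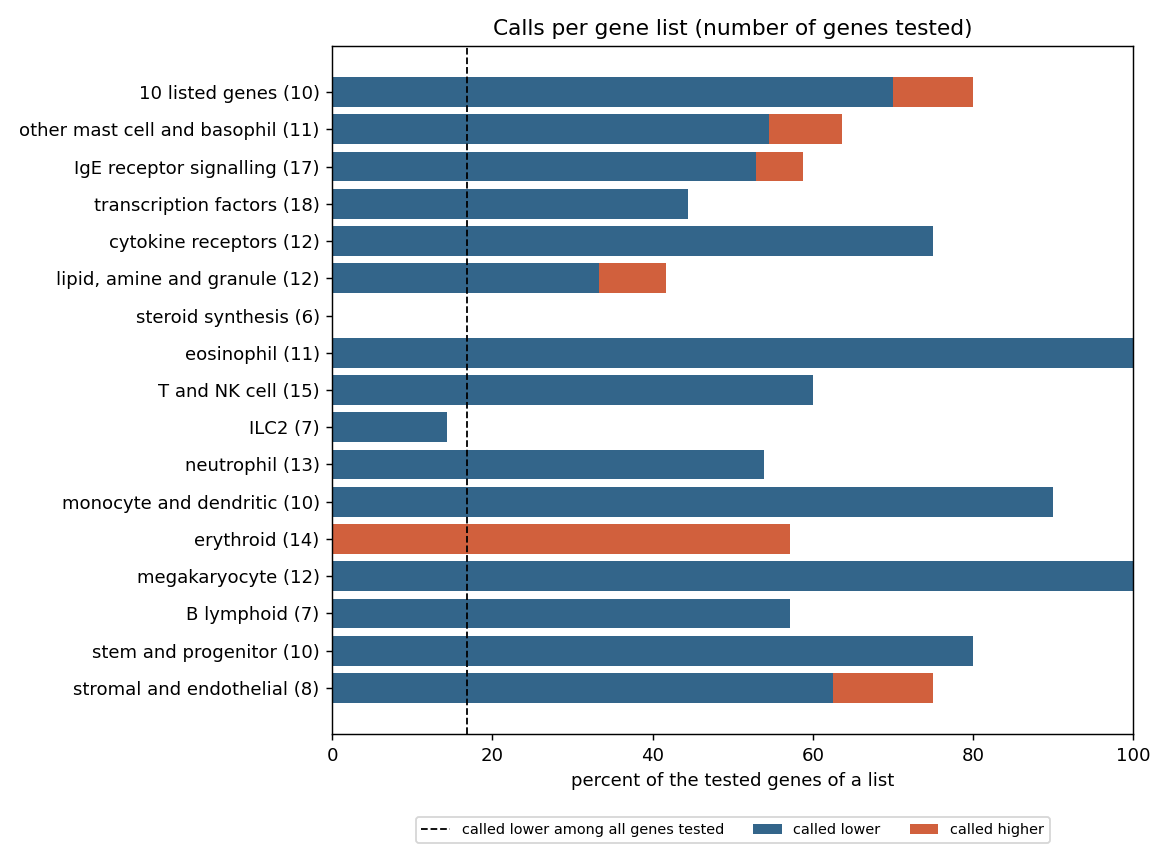
Percent of the tested genes of each list called lower (blue) or higher (orange) in the libraries labelled cKO, with the number of genes tested in parentheses and a dashed line at the 16.8% called lower among all genes tested. All 11 eosinophil genes and all 12 megakaryocyte genes were called lower.

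The sequence before the start of each of the 10 genes was searched, as a description of these genes. Sequences were read from the GRCm39 genome, from 250 bases before to 50 bases after the start of the transcript marked as canonical, and both strands were searched. That start lies inside the outermost annotated one by 10057 bases in Il1rl1, 8172 in Cyp11a1, 419 in Hdc and 76 in Mcpt8, and windows at the outermost starts were not searched. The letters searched were AGATAA for GATA factors, TGTGGT for RUNX factors, TTCNNNGAA for STAT5 and GAGGAAGT for PU.1. AGATAA was present in 5 of the 10 windows, in 10.6% of the 21627 windows of protein-coding genes, in 8.27% of the 12877 of genes tested and in 10.6% of the 2425 of genes called lower. In the same order, TGTGGT was present in 6 of the 10, 15.4%, 14.1% and 16.8%, TTCNNNGAA in 2 of the 10, 8.85%, 7.76% and 8.04%, and GAGGAAGT in 0 of the 10, 3.09%, 3.11% and 5.11%. These shares were not compared by a test, and a match describes the letters only. The 120 bases before the start are shown for the 5 genes with AGATAA, or TTATCT on the opposite strand, in capitals, 4 of them called lower and Il1rl1 not called:
Cpa3: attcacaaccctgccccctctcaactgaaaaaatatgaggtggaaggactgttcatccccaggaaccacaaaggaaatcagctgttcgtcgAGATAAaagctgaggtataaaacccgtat
Prss34: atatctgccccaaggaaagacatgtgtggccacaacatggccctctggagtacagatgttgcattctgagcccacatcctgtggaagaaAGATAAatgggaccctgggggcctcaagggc
Ms4a2: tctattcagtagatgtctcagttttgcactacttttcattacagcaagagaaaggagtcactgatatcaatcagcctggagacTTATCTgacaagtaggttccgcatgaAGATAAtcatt
Fcer1a: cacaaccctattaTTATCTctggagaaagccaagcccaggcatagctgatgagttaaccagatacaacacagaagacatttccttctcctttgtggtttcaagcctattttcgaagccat
Il1rl1: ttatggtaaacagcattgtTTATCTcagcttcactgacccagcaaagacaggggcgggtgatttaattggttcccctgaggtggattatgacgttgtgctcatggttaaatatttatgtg

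These windows lie at chr3:20296363-20296482 (Cpa3, minus strand), chr17:25517248-25517367 (Prss34, plus strand), chr19:11601084-11601203 (Ms4a2, minus strand), chr1:173054782-173054901 (Fcer1a, minus strand) and chr1:40478667-40478786 (Il1rl1, plus strand), each on the strand of its gene and in GRCm39. The match began 29 bases before the start in Cpa3 and 31 bases before it in Prss34, and Ms4a2 had matches at 37 and 11 bases before it and another, outside the printed stretch, at 224 bases. In Fcer1a and Il1rl1 the only match lay at 107 and 101 bases. The genes lie on chromosomes 1, 2, 3, 9, 14, 17 and 19, with Fcer1a and Il1rl1 both on chromosome 1, Mcpt8 and Gzmb both on chromosome 14 and Prss34 and Tpsb2 both on chromosome 17. The genes of each of these pairs differed in call.

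Within the libraries with Xist at no more than 1 FPKM, WT 1 and 2 and all 5 labelled cKO, a comparison chosen after seeing the data, 5 of the 10 genes were called lower. Over all genes tested there, 2261 were called lower and 536 higher. The filter was applied to these libraries alone, so the number tested need not be the 18742 of the main fit. Cpa3 and Fcer1a kept their direction, with log2 fold changes of -1.59 and -1.63, but not the call, and Tpsb2 was not called either. In the fit with Xist as a covariate over all libraries, 7 of the 10 genes were called lower. That fit called 2801 genes lower and 638 higher over the same 18742 genes as the main fit.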

How the data were processed

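The authors trimmed reads, aligned them to GRCm39 and deposited FPKM per gene and library, with 5 libraries labelled WT and 5 labelled cKO. The submitters' processing notes name cutadapt 1.9.1, HISAT2 2.0.1 and HTSeq 0.6.1. The count test of the study was not run on FPKM. By a general statement in the methods, replicates came from separate mice unless noted. The mouse behind each library is not given in the sources used here, and p-values measure the spread between these libraries.

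Values were taken as log2(FPKM + 0.1) and the genes whose mean reached 0.1 FPKM entered limma 3.58.1 in R 4.3.3 (eBayes with a trend, two-sided, Benjamini-Hochberg over all genes tested), while single genes were also compared by an exact permutation test, not adjusted. Other steps used Python 3.11.15. Depth was found from genes with 1 transcript, as the smallest at which low values, of under 20 fragments, were whole within 0.2; fragment numbers of genes with several transcripts are approximate. The limma step was tested on simulated data.

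The members and the 16 lists were chosen with earlier results of these data known. Vpreb1 of the B lymphoid list had no match. Named genes were drawn from all 10 members, Dhx9, Xist and Ddx3y, of each list the 2 tested genes with the highest mean over all libraries and the 2 called genes with the largest change, relatives of a member, and each member's nearest other member. Genes outside this rule were chosen after their values were seen. The alternatives tried were other pseudocounts, filters and scalings, no trend, a replicate block, a covariate for Xist, leaving out each library, no fold limit, the libraries with low Xist alone (chosen after seeing the data), and the 250 bases before the start alone.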

Additional observations from a re-analysis of the deposited data

Results flagged for a closer look

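In groups of 5 libraries, 18 of 185 groups examined held a library far from the others of its label. For independent, normally distributed values chance gives about 1 group in 20. The groups examined share libraries and genes, and in some only 1 library was above 0, so that rate does not apply to them. WT 3 was far below the other WT libraries for Mcpt8 (204.94 FPKM against 338.19 to 371.66), Prss34 (328.66 against 671.4 to 722.61), Fcer1a (14.84 against 23.63 to 25.98) and the sum of the 10 genes (693 against 1241 to 1381). For Tpsb2, WT 3 was the only WT library above 0, at 0.04 FPKM. The library labelled cKO 4 stood above its group in the ratios to Mcpt8 of Ms4a2 (0.790) and Il1rl1 (1.32).

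The library labelled cKO 5 stood above its group for Hnmt (1.42 FPKM), Gp6 (0.86), Dntt (1.56) and Flt3 (5.86) and below it for Hbb-bs (563.3), and that labelled cKO 3 above it for Ncr1 (0.28) and Col1a1 (0.38). At levels near 0, Mcpt1 stood apart in WT 2 (0.06 FPKM) and in the library labelled cKO 2 (0.11), as did Mcpt9 (0.06) and Tpsg1 (0.04) in the latter. The causes were not tested.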

How the results depend on the processing

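The 7 genes called lower kept their direction under all 22 alternatives, and the call under all but 1. That one, chosen after seeing the data, used only libraries with Xist at no more than 1 FPKM. There 5 of the 10 genes were called lower, with Cpa3 at a log2 fold change of -1.59 (exact permutation p = 0.0952) and Fcer1a at -1.63, both without the call, and Tpsb2 at 1.63 (exact permutation p = 0.190). That comparison has fewer libraries, with the filter applied to them alone, and called 2261 genes lower and 536 higher. Tpsb2, whose fold follows the pseudocount, also lost its call with a pseudocount of 1 (0.31, limma adjusted p = 0.0274) and with a covariate for Xist (1.63, limma adjusted p = 0.0721), and was below the filter at a mean of at least 1 FPKM and without the library labelled cKO 2. Gzmb, not called, turned to 0.13 with quantile normalization (exact permutation p = 0.690). Over libraries left out in turn, Mcpt8 ranged from -2.72 to -1.86, Prss34 from -3.08 to -2.27 and the median of the 10 genes from -1.79 to -1.39.

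Over all genes, a pseudocount of 1 gave 1486 lower and 356 higher, a mean of at least 1 FPKM 1827 and 462, and adjusted p alone 5300 and 3138. Quantile normalization gave 1514 higher, so that 39.7% of calls were higher in place of 21.5%, and shifted the median over all genes from -0.11 to 0.10 on the log2 scale. Median-ratio scaling shifted it to -0.01. The replicate block gave 3107 lower and 857 higher and 7 of the 10 genes lower. The numbers did not pair the libraries, with correlations of deviations of -0.010 to 0.117 and 5 of 10 libraries most like their own number.

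For the lists, 668 of 704 counts stayed within 1.5 times. With a pseudocount of 1, 0 other mast cell and basophil genes were called higher by limma, and lower were 4 T and NK, 2 B lymphoid, 5 stem and progenitor and 3 stromal genes. At a minimum mean of 1 FPKM these were 0, 4 T and NK, 2 B lymphoid and 1 stromal. Fewer genes are tested at that minimum. Mcpt4, at a mean of 0.438 FPKM, was not tested there, and all T and NK genes tested there were called lower. A pseudocount of 0.01 gave 3 ILC2 genes lower, and quantile normalization 2 other mast cell and basophil genes higher and 3 stromal genes lower. Adjusted p alone gave 3 transcription factors and 13 erythroid genes higher, 2 steroid genes lower and 1 higher, and 3 ILC2 genes lower. With Xist at no more than 1 FPKM, 4 T and NK, 3 neutrophil, 2 B lymphoid and 3 stromal genes were lower. Stromal genes called higher were 0 there, with the replicate block and with the Xist covariate. With each library left out, other mast cell and basophil genes called higher were 1 to 3, ILC2 genes lower 1 to 2, and stromal genes lower 3 to 6 and higher 0 to 1. The causes were not tested. With 250 bases before the start alone, AGATAA was in 5 of 10 windows and TGTGGT in 5.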
